A study of Homo sapiens with 6 samples.

Results

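The genes described here are 8 regulators and receptors of the neural crest: the AP-2 transcription factors TFAP2A, TFAP2B and TFAP2C, the specifiers FOXD3, PAX3 and SOX10, the transcription factor ETS1, and the endothelin receptor EDNRB. They were chosen by name among 19775 genes with a named probe set, and every one of their 23 probe sets is reported. Where a gene has several probe sets, the brightest one on average over the 6 arrays leads. They were measured in SK-N-AS (SKNAS in the labels), a human neuroblastoma cell line, on 6 Affymetrix expression arrays in 3 cultures of 2 arrays each. iCSC cells were exposed as a monolayer to 2.5 uM 5AdC, which blocks the DNA methyltransferases, over 5 days before growing as spheroids in serum-free medium. Sphere cells grew as spheroids in serum-free medium with no such pretreatment, and Monolayer cells grew as a monolayer, also with none. All 3 come from the same line. In iCSC against Monolayer, the pretreatment and the growth as spheroids in serum-free medium cannot be told apart.

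The neural crest is a transient population of the vertebrate embryo that leaves the neural tube and forms peripheral neurons, glia, pigment cells and the sympathoadrenal lineage, from which neuroblastoma arises. AP-2 factors and PAX3 act early, at the border of the neural plate. FOXD3, SOX10 and ETS1 act as crest cells form and migrate, and EDNRB receives the endothelin signal in crest cells bound for the gut and the skin.

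Levels are log2 GCRMA signals, given per array and as mean ± SD (n = 2 per culture). A log2 value of 5 was taken as the limit of detection, a chosen limit, since the deposited table carries no detection call. Where every array of a culture lay under it, the fold is a lower bound with values under 5 set to 5, written "at least", and the adjusted p beside it tests the values as deposited. Fold changes are the first-named culture minus the second on the log2 scale, with their SE from limma. A probe set above the limit in 1 culture alone passed the filter through that culture, so the filter set the direction of its calls against the other cultures. Whether paired arrays stem from independently grown cells is not stated by the labels. The p-values thus reflect array-to-array spread alone, possibly of technical origin, and precision is limited by the number of arrays.

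The array medians lay between 2.78 and 2.83. The 2 arrays of a culture correlated at 0.984 to 0.996 over the 10459 tested genes, and arrays of different cultures at 0.729 to 0.859. The 3' minus 5' difference of the ACTB control probe sets, a sign of RNA integrity, was 1.47 and 1.40 in iCSC, 1.22 and 1.21 in Sphere, and 1.25 and 1.16 in Monolayer. The same difference for GAPDH was 0.169 and 0.204 in iCSC, 0.122 and 0.148 in Sphere, and 0.154 and 0.165 in Monolayer. The part of RNA integrity in the results below was not tested.

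Each of the 3 AP-2 genes had its own pattern over the cultures. TFAP2A was above the limit in Monolayer alone, TFAP2B was highest in Sphere, and TFAP2C was under the limit in iCSC and above it in Sphere and Monolayer. EDNRB was highest in Sphere, ETS1 was above the limit everywhere, and FOXD3, PAX3 and SOX10 stayed under it on all 6 arrays. In a bulk measurement of this kind, fewer cells of a type and less RNA per cell cannot be told apart.

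**Figure D1:**
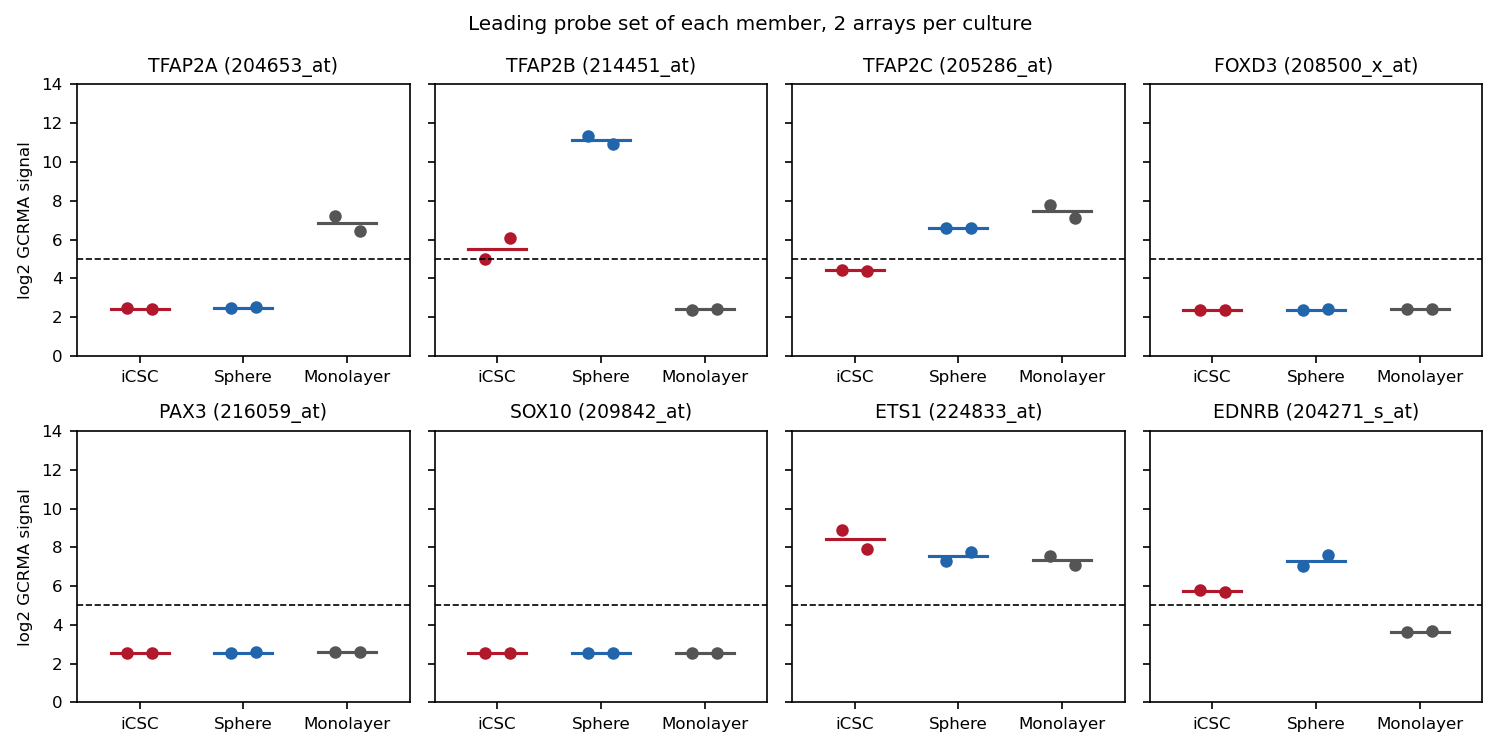
Log2 GCRMA signal of the leading probe set of each of the 8 genes by culture. Points are the 2 arrays of a culture, short bars their mean and the dashed line the limit at log2 5. TFAP2B reaches 11.33 and 10.91 in Sphere and TFAP2A 7.22 and 6.45 in Monolayer, while FOXD3, PAX3 and SOX10 lie under the line in every culture.

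TFAP2A is the AP-2 factor most closely tied to the specification of the crest. Its leading probe set 204653_at read 2.45 and 2.44 in iCSC, 2.47 and 2.51 in Sphere, and 7.22 and 6.45 in Monolayer. Both spheroid cultures lay in the band of unexpressed probe sets, and neither overlapped Monolayer. TFAP2A was at least 3.56-fold lower in iCSC than in Monolayer (limma, adjusted p = 3.59e-05) and at least 3.56-fold lower in Sphere than in Monolayer (adjusted p = 2.76e-05). Between iCSC and Sphere, both under the limit, no fold can be given (adjusted p = 0.919). The gene entered the test through Monolayer alone, so the filter set the direction of both calls. Its other probe sets stayed under the limit: 204654_s_at read 3.08 and 3.0 in iCSC, 3.02 and 3.10 in Sphere, and 3.61 and 4.16 in Monolayer, and 210669_at lay between 2.38 and 2.43 on all arrays.

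TFAP2B is needed in the mouse for the development of sympathetic neurons and marks the adrenergic state of neuroblastoma. Its leading probe set 214451_at read 4.98 and 6.06 in iCSC, 11.33 and 10.91 in Sphere, and 2.39 and 2.44 in Monolayer. The 3 cultures did not overlap, with Sphere far above both others and 1 of the 2 iCSC arrays just under the limit. The log2 means were 5.52 ± 0.76 in iCSC and 11.12 ± 0.30 in Sphere, a change of -5.60 ± 0.36 in iCSC against Sphere (SE; limma, adjusted p = 6.68e-05). In Sphere the gene exceeded Monolayer by at least 69.7-fold (adjusted p = 4.63e-06). In iCSC it stood above Monolayer by at least 1.45-fold (adjusted p = 0.000572, range over 17 alternatives 0.000238 to 0.250), and raising every value under 5 to 5 ended that call (adjusted p = 0.250).

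A further TFAP2B probe set, 1553394_a_at, passed the filter through Sphere alone, so the direction of its calls is no support for that of the leading one. It read 2.88 and 2.94 in iCSC, 9.62 and 9.02 in Sphere, and 2.40 and 2.41 in Monolayer, at least 20.0-fold lower in iCSC than in Sphere (limma over probe sets, adjusted p = 7.70e-06) and at least 20.0-fold higher in Sphere than in Monolayer (adjusted p = 2.11e-06). It showed no call between iCSC and Monolayer, both under the limit (adjusted p = 0.109). In iCSC, TFAP2B reached the limit in 1 of its 3 probe sets and on 1 array. The last one, 215686_x_at, stayed under the limit, at 2.37 and 2.33 in iCSC, 4.74 and 4.53 in Sphere, and 2.38 and 2.34 in Monolayer.

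TFAP2C, known for its roles in trophoblast and germ cells, was lowest in iCSC. 205286_at read 4.45 and 4.38 in iCSC, 6.60 and 6.58 in Sphere, and 7.81 and 7.10 in Monolayer. The arrays of the 3 cultures did not overlap, and both iCSC arrays were under the limit. iCSC was at least 3.01-fold below Sphere (limma, adjusted p = 0.000929) and at least 5.49-fold below Monolayer (adjusted p = 0.000133). Sphere differed from Monolayer by -0.87 ± 0.25 (log2, SE; adjusted p = 0.0231, range over 17 alternatives 0.00782 to 0.0994). That last call was lost without Monolayer replicate 1, where the change was -0.52 (adjusted p = 0.0868), without Sphere replicate 1 (0.0908), without Sphere replicate 2 (0.0911), with no filter (0.0638) and without variance moderation (0.0994). The other TFAP2C probe set, 205287_s_at, lay between 2.42 and 2.51 on all arrays.

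The remaining family members TFAP2D and TFAP2E stayed under the limit in every culture, at 2.71 to 2.74 and at 2.33 to 2.42. TFAP2D lies next to TFAP2B on chromosome 6.

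**Figure D2:**
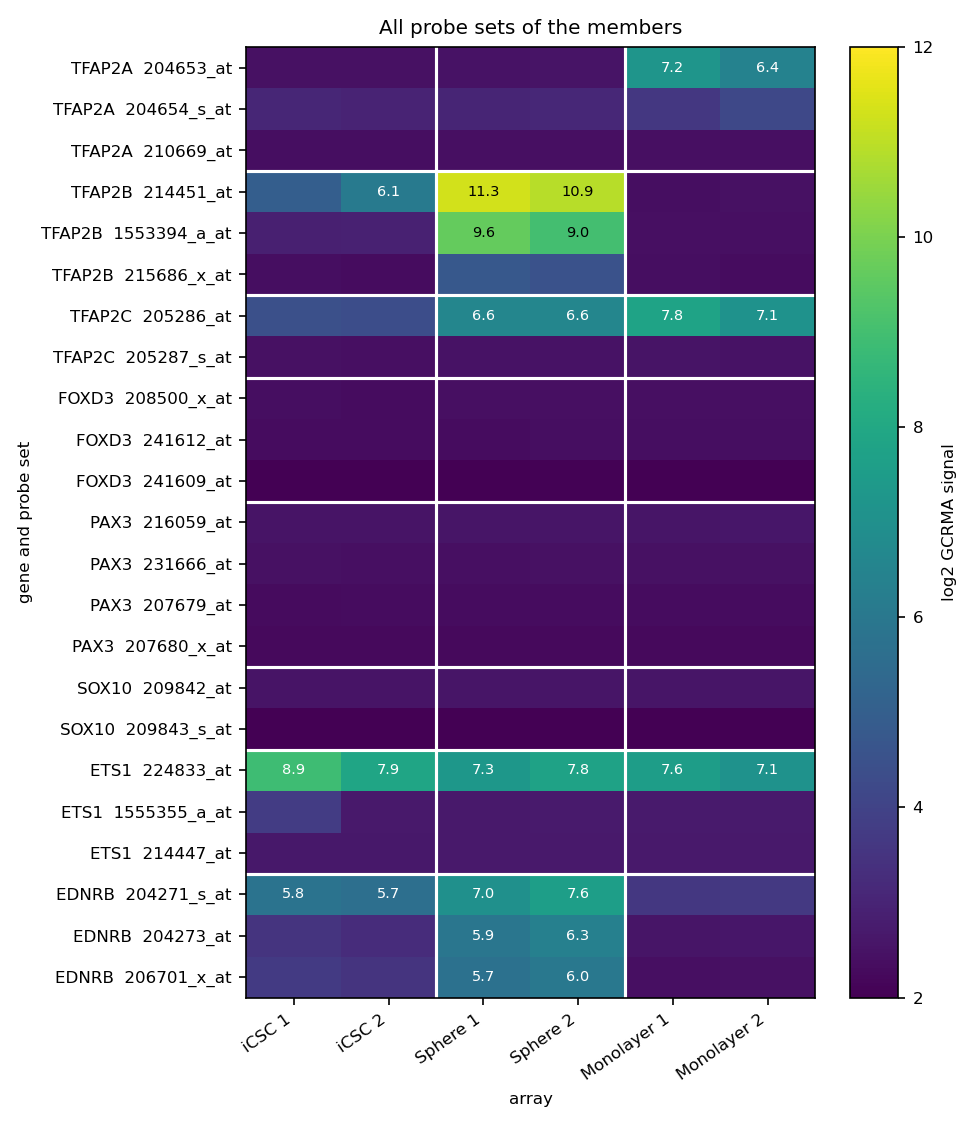
Log2 GCRMA signal of all 23 probe sets (rows) on the 6 arrays (columns), coloured from dark (low) to yellow (high), with the value printed where it reaches log2 5. TFAP2A, TFAP2C and ETS1 reach the limit in 1 probe set each, TFAP2B in 2 and EDNRB in 3, and none of the 9 probe sets of FOXD3, PAX3 and SOX10 does.

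FOXD3, which keeps crest cells undifferentiated, lay between 2.0 and 2.42 over its 3 probe sets and 6 arrays. PAX3, a paired box factor upstream of pigment cell genes, lay between 2.25 and 2.6 over 4 probe sets. SOX10, which directs crest cells towards glia and pigment cells, lay between 1.95 and 2.57 over 2 probe sets. None of these 3 genes passed the filter on low values, so 5 of the 8 genes were tested. With no filter they entered a fit of 19775 genes and were not called in any comparison, with adjusted p between 0.137 and 0.720, which at these signals says nothing about levels under the limit.

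ETS1, a factor of crest migration that is also found in endothelial and blood cells, was the only one of the 8 genes above the limit on every array. 224833_at read 8.91 and 7.90 in iCSC, 7.30 and 7.77 in Sphere, and 7.56 and 7.08 in Monolayer. The iCSC arrays were above all others, and the Sphere and Monolayer arrays overlapped. iCSC exceeded Monolayer by 1.08 ± 0.36 (log2, SE; limma, adjusted p = 0.0428, range over 17 alternatives 0.00859 to 0.221). This call was lost under 9 of the alternatives, among them without iCSC replicate 1, where the change was 0.58 (adjusted p = 0.169), Sphere replicate 1 (0.0716), Sphere replicate 2 (0.0718), Monolayer replicate 1 (0.0875) and Monolayer replicate 2 (0.221). iCSC and Sphere differed by 0.87 (95% interval -0.01 to 1.75), which did not pass (adjusted p = 0.107, range 0.0211 to 0.402) except without iCSC replicate 2 (0.0211). Sphere and Monolayer differed by 0.21 (interval -0.66 to 1.09, adjusted p = 0.645). The other ETS1 probe sets stayed under the limit, with 1555355_a_at at 3.79 on 1 iCSC array and between 2.67 and 2.74 on the 5 other arrays.

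EDNRB, the receptor through which endothelins act on crest precursors of enteric neurons and melanocytes, was highest in Sphere in all 3 of its probe sets. 204271_s_at read 5.80 and 5.67 in iCSC, 7.01 and 7.61 in Sphere, and 3.63 and 3.66 in Monolayer. The cultures did not overlap, and both Monolayer arrays were under the limit. EDNRB changed by -1.58 ± 0.23 in iCSC against Sphere (log2, SE; limma, adjusted p = 0.00268). Against Monolayer it stood at least 1.66-fold higher in iCSC (adjusted p = 0.000496) and at least 4.97-fold higher in Sphere (adjusted p = 3.05e-05). 204273_at read 3.52 and 3.26 in iCSC, 5.93 and 6.34 in Sphere, and 2.58 and 2.62 in Monolayer. 206701_x_at read 3.72 and 3.5 in iCSC, 5.73 and 6.0 in Sphere, and 2.42 and 2.45 in Monolayer. In both of these only Sphere reached the limit, at least 2.20-fold and 1.82-fold above iCSC and above Monolayer (largest adjusted p = 0.000215). Both passed the filter through Sphere alone, which set that direction, so they are no support for the leading probe set. In iCSC, EDNRB reached the limit in 1 probe set of 3. 204273_at and 206701_x_at were called higher in iCSC than in Monolayer (limma over probe sets, adjusted p = 0.0169 and 0.00205). Both cultures were under the limit there, so those calls are no measured rise.

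Counted over the tested genes, iCSC against Sphere called 3 of the 5 lower (TFAP2B, TFAP2C and EDNRB) and none higher, where 38.5% of all tested genes were called, 19.3% higher and 19.2% lower. iCSC against Monolayer called TFAP2B, ETS1 and EDNRB higher and TFAP2A and TFAP2C lower, 5 of 5, where 55.6% of all genes were called, 29.0% higher and 26.6% lower. Sphere against Monolayer called TFAP2B and EDNRB higher and TFAP2A and TFAP2C lower, 4 of 5, where 59.0% of all genes were called, 30.0% higher and 29.1% lower. The last 2 comparisons share the Monolayer arrays. Of the 5 genes, TFAP2A entered the test through Monolayer alone, TFAP2B through Sphere and 1 iCSC array, TFAP2C through Sphere and Monolayer, and EDNRB through iCSC and Sphere, so the counts are a description only. Over single probe sets, 8 of the 23 passed the filter. In iCSC against Sphere 6 of them were called lower and 0 higher, beside 34.5% of all tested probe sets (17.4% higher, 17.1% lower). In iCSC against Monolayer 7 were called, 5 higher and 2 lower, beside 54.2% (27.7% higher, 26.6% lower). Those 5 include EDNRB 204273_at and 206701_x_at, under the limit in both cultures, so these calls are no measured rise. In Sphere against Monolayer 7 were called, 5 higher and 2 lower, beside 57.0% (28.1% higher, 28.9% lower). TFAP2B 1553394_a_at and EDNRB 204273_at and 206701_x_at passed the filter through Sphere alone. The filter thus set their direction in both comparisons with Sphere, as it did for TFAP2A 204653_at against Monolayer. Probe sets of the same gene are also not independent, so the probe set counts are a description only.

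**Figure D3:**
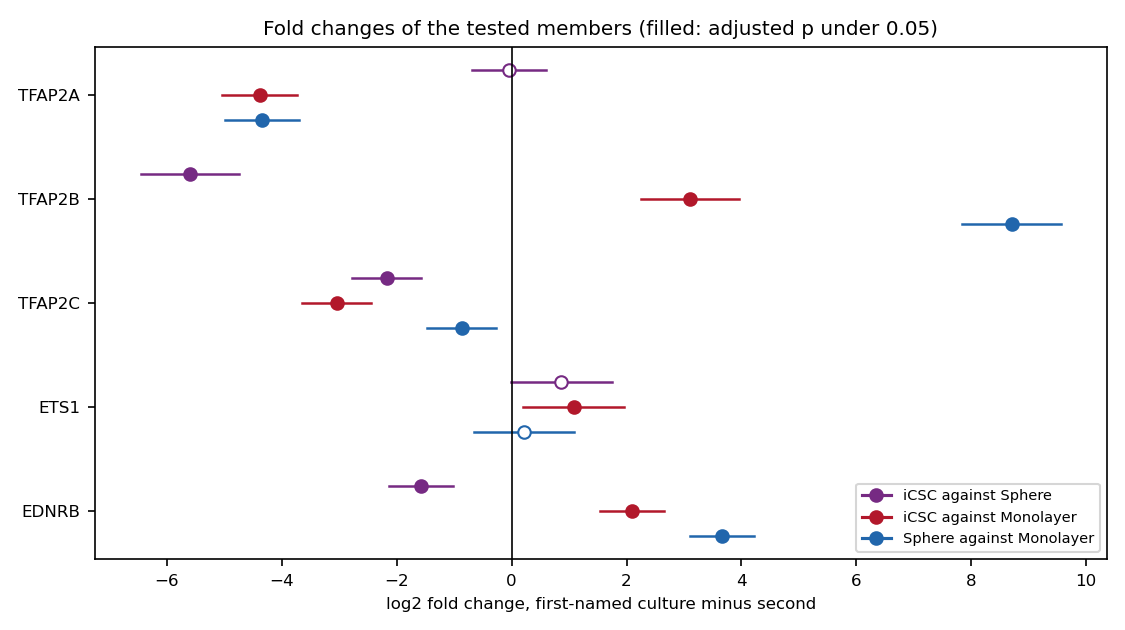
Log2 fold change (first-named culture minus second) of the 5 tested genes in the 3 comparisons, from values as deposited. Points are limma estimates, lines their 95% intervals, and filled points have an adjusted p under 0.05. TFAP2B spans the widest range, from -5.60 in iCSC against Sphere to 8.70 in Sphere against Monolayer, and means under log2 5 enter it as deposited.

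DNA methylation in mammals sits mainly at CpG dinucleotides, and 5AdC blocks the enzymes that maintain it. Methylation was not measured here. Promoter windows of RefSeq (GRCh38.p14), 250 bases before to 50 bases after an annotated start, were matched for 5 of the 8 genes, in 7 windows. The windows of 3 genes whose signal differed between cultures are shown 5′ to 3′ on the gene's strand, with each CpG in capitals. The TFAP2A window is chr6:10419610-10419909 on the minus strand, the TFAP2B window chr6:50818621-50818920 on the plus strand, and the EDNRB window chr13:77918782-77919081 on the minus strand.
TFAP2A: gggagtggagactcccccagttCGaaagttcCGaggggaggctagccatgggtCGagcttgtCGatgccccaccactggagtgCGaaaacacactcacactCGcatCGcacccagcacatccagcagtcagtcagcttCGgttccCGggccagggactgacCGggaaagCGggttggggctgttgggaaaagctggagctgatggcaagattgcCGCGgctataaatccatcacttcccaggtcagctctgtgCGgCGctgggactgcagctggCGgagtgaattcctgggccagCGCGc
TFAP2B: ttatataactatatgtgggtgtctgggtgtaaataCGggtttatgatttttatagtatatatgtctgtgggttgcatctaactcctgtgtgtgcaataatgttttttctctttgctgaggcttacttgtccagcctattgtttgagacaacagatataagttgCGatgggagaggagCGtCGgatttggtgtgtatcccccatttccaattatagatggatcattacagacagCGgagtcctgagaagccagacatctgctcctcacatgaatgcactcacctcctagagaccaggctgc
EDNRB: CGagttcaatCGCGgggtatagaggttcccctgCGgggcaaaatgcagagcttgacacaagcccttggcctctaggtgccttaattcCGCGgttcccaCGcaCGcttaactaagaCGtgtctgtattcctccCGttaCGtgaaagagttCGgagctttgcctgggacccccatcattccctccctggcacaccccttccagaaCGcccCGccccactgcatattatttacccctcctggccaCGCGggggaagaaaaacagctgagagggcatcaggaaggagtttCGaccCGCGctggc

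The TFAP2A window holds 18 CpGs, the EDNRB window 19 and the TFAP2B window 5, where the median over 35116 windows of all genes is 14. Fewer CpGs than in the window of TFAP2A were found in 55.5% of all windows, and fewer than in that of TFAP2B in 29.6%. The further windows of TFAP2A and EDNRB hold 18 and 14 CpGs. The windows of FOXD3 and PAX3, both genes under the limit in all 3 cultures, hold 29 and 21. A tie between CpG counts and the exposure to 5AdC was not tested. The consensus of AP-2 factors, GCCNNNGGC, which reads the same on both strands, was searched in all 7 windows and found in 1, the EDNRB window shown, as GCCCTTGGC starting at position -190 from the start. The same letters are present in 23.2% of all windows, and the ETS letters CCGGAAGT, searched on both strands, in 4.14% of all windows and in none of the 7. A match of letters is a description and not a binding site.

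Relatives and co-regulators of AP-2 factors moved in both directions. Of 9 listed, 7 were tested. In iCSC against Sphere 0 rose and 2 fell, in iCSC against Monolayer 2 rose and 1 fell, and in Sphere against Monolayer 3 rose and 1 fell, and the list medians were 0.14, 0.15 and 0.39 where those of all genes were 0.01, 0.02 and 0.01. KCTD15, which represses the activity of TFAP2A, read 7.59 and 8.27 in iCSC, 9.81 and 9.77 in Sphere, and 5.36 and 5.07 in Monolayer, so its cultures did not overlap and stood in the same order as those of TFAP2B. It changed by -1.86 ± 0.25 in iCSC against Sphere (log2, SE; limma, adjusted p = 0.00171), by 2.71 ± 0.25 in iCSC against Monolayer (adjusted p = 0.000206) and by 4.58 ± 0.25 in Sphere against Monolayer (adjusted p = 1.47e-05).

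CITED2, a co-activator that links AP-2 factors to the acetyltransferases EP300 and CREBBP, read 6.29 and 5.76 in iCSC, 5.64 and 4.72 in Sphere, and 10.34 and 10.76 in Monolayer. Monolayer stood far above both spheroid cultures, as it did for TFAP2A. The change was -4.53 ± 0.35 in iCSC against Monolayer (log2, SE; limma, adjusted p = 9.81e-05) and -5.37 ± 0.35 in Sphere against Monolayer (adjusted p = 3.37e-05). The related CITED1 read 7.85 and 7.10 in iCSC, 6.49 and 6.60 in Sphere, and 5.20 and 4.59 in Monolayer, and was called higher in iCSC than in Monolayer by 2.58 ± 0.31 (adjusted p = 0.000678). CITED4, a further co-activator, read 4.90 and 5.14 in iCSC, 6.35 and 7.11 in Sphere, and 5.06 and 4.73 in Monolayer, and was called lower in iCSC than in Sphere by -1.71 ± 0.29 (adjusted p = 0.00461, range over 16 alternatives 0.00398 to 0.0640, the highest without variance moderation). EP300, CREBBP and KCTD1 did not pass the test in any comparison.

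The ligands of EDNRB ran in another order than the receptor. Of 7 listed genes of the endothelin axis 4 were tested, and in iCSC against Sphere 1 rose and 0 fell, in iCSC against Monolayer 1 rose and 1 fell, and in Sphere against Monolayer 0 rose and 2 fell. EDN3, the peptide that acts on EDNRB in the crest, read 12.25 and 11.82 in iCSC, 7.52 and 7.92 in Sphere, and 10.26 and 9.84 in Monolayer. Sphere, the culture with the highest EDNRB, thus had the lowest EDN3, and no arrays overlapped between cultures. EDN3 changed by 4.32 ± 0.22 in iCSC against Sphere (log2, SE; limma, adjusted p = 2.82e-05), by 1.98 ± 0.22 in iCSC against Monolayer (adjusted p = 0.000520) and by -2.33 ± 0.22 in Sphere against Monolayer (adjusted p = 0.000204). EDN1, the endothelin of blood vessels and facial crest, was above the limit in Monolayer alone, at 2.74 and 2.71 in iCSC, 2.72 and 2.77 in Sphere, and 5.82 and 6.35 in Monolayer. It was at least 2.12-fold lower in iCSC and in Sphere than in Monolayer (adjusted p = 4.86e-05 and 3.58e-05). The converting enzymes ECE1 and ECE2, which release the active peptides, lay between 6.75 and 7.03 and between 5.92 and 6.23 on all arrays, without a call.

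**Figure D4:**
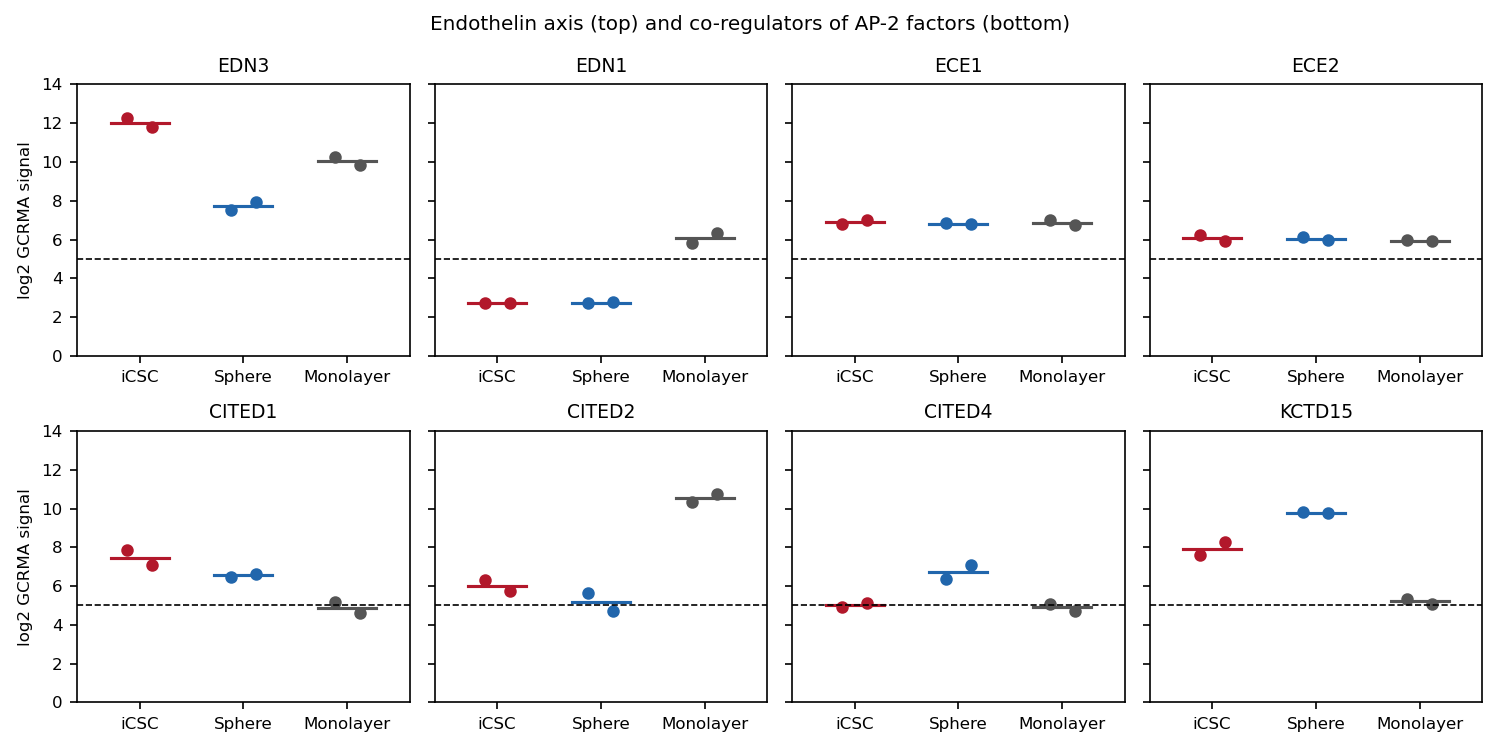
Log2 GCRMA signal of 4 genes of the endothelin axis (top row) and 4 co-regulators of AP-2 factors (bottom row) by culture. Points are the 2 arrays, short bars the mean and the dashed line the limit at log2 5. EDN3 is lowest in Sphere (7.52 and 7.92) and KCTD15 highest there (9.81 and 9.77), while CITED2 and EDN1 are highest in Monolayer.

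Other factors of the neural plate border and crest moved in both directions. Of 25 listed, 16 were tested. The 3 comparisons below called 38.5%, 55.6% and 59.0% of all tested genes, whose medians were 0.01, 0.02 and 0.01. In iCSC against Sphere 4 rose and 4 fell, in iCSC against Monolayer 5 rose and 4 fell, and in Sphere against Monolayer 6 rose and 6 fell, with medians of 0.02, 0.18 and 0.13. DLX5, a homeobox factor of the border, read 10.15 and 9.57 in iCSC, 7.55 and 6.89 in Sphere, and 2.43 and 2.47 in Monolayer. It rose by 2.64 ± 0.29 in iCSC against Sphere (log2, SE; limma, adjusted p = 0.000715) and exceeded Monolayer by at least 29.1-fold in iCSC and at least 4.65-fold in Sphere (adjusted p = 5.32e-06 and 2.44e-05). SOX5, a factor of crest survival and migration in the chick, was above the limit in Sphere alone, at 3.28 and 3.14 in iCSC, 6.41 and 6.73 in Sphere, and 2.88 and 3.13 in Monolayer (at least 2.97-fold lower in iCSC than in Sphere, adjusted p = 4.99e-05). MSX2, a border factor, was above the limit in Monolayer alone, at 3.88 and 3.48 in iCSC, 3.01 and 3.04 in Sphere, and 6.93 and 6.47 in Monolayer. SOX9, a further crest factor, lay between 9.72 and 10.55 on all arrays without a call, and SNAI1, ZIC1 and PAX7 stayed under the limit.

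SNAI2, a repressor that drives crest cells out of the epithelium, read 8.72 and 7.43 in iCSC, 6.06 and 5.79 in Sphere, and 8.27 and 7.71 in Monolayer. Sphere was lowest, and iCSC overlapped Monolayer. The change was 2.15 ± 0.42 in iCSC against Sphere (log2, SE; limma, adjusted p = 0.00871, range over 17 alternatives 0.00162 to 0.0996), lost without Sphere replicate 1 (0.0502), without Sphere replicate 2 (0.0664) and without variance moderation (0.0996). NR2F1, an orphan nuclear receptor of crest enhancers, read 10.32 and 10.43 in iCSC, 10.80 and 10.40 in Sphere, and 7.18 and 7.38 in Monolayer, higher by 3.10 ± 0.16 in iCSC and by 3.32 ± 0.16 in Sphere than in Monolayer (adjusted p = 1.86e-05 and 1.02e-05).

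Among 17 surface and adhesion genes of migrating crest, 13 were tested. All tested genes were called at 38.5%, 55.6% and 59.0% in the 3 comparisons below, with medians of 0.01, 0.02 and 0.01. In iCSC against Sphere 3 rose and 6 fell, in iCSC against Monolayer 4 rose and 8 fell, and in Sphere against Monolayer 5 rose and 6 fell, with medians of -0.54, -1.06 and 0.34. Among the 4 in iCSC against Monolayer, ROBO2 was under the limit in both cultures, so that call is no measured rise (adjusted p = 1 with values under 5 set to 5). Another, CDH11, a cadherin of migrating crest named here after its values were seen, was called under 7 of 17 alternatives (limma, adjusted p = 0.0279, range 0.00163 to 0.181). Its call was lost without iCSC replicate 1 (change 0.99, adjusted p = 0.0528), Sphere replicate 1 (0.0638), Sphere replicate 2 (0.0636), Monolayer replicate 1 (0.0653) or Monolayer replicate 2 (0.166). NGFR, the neurotrophin receptor used to isolate crest stem cells, read 4.82 and 5.28 in iCSC, 8.55 and 8.31 in Sphere, and 9.80 and 9.87 in Monolayer. It was lowest in iCSC, as TFAP2C was, with changes of -3.38 ± 0.20 against Sphere and -4.79 ± 0.20 against Monolayer (log2, SE; limma, adjusted p = 4.69e-05 and 7.15e-06). CXCR4, a chemokine receptor of migrating cells, read 8.68 and 8.57 in iCSC, 5.53 and 5.61 in Sphere, and 3.99 and 3.0 in Monolayer, with iCSC at least 12.3-fold over Monolayer (adjusted p = 3.90e-05). VCAN, a matrix proteoglycan on crest paths, read 6.23 and 6.76 in iCSC, 11.36 and 11.65 in Sphere, and 7.80 and 7.65 in Monolayer, a change of -5.01 ± 0.21 in iCSC against Sphere (adjusted p = 1.13e-05). ROBO2, a guidance receptor, was above the limit in Sphere alone, at 3.30 and 3.47 in iCSC, 6.86 and 6.80 in Sphere, and 2.62 and 2.58 in Monolayer.

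Of 16 other ETS factors 11 were tested, and in iCSC against Sphere 4 rose and 3 fell, in iCSC against Monolayer 3 rose and 4 fell, and in Sphere against Monolayer 5 rose and 5 fell, with medians of -0.19, -0.20 and -0.22. The same comparisons called 38.5%, 55.6% and 59.0% of all tested genes, with medians of 0.01, 0.02 and 0.01. With no filter, 2 of the ETS factors were called higher and 2 lower in iCSC against Sphere. ELF4, an ETS factor of lymphoid cells, was above the limit in Monolayer alone, at 4.01 and 4.05 in iCSC, 3.41 and 3.40 in Sphere, and 9.22 and 8.87 in Monolayer. It was at least 16.5-fold lower in iCSC and in Sphere than in Monolayer (limma, adjusted p = 4.52e-06 and 1.91e-06). It is also among the 4 called higher in iCSC against Sphere, with both cultures under the limit, so that call is no measured rise. The call held under 8 of 17 alternatives (adjusted p = 0.0381, range 0.0182 to 1) and was lost without iCSC replicate 1 (0.0708), iCSC replicate 2 (0.0831), Sphere replicate 1 (0.113) or Sphere replicate 2 (0.114). FLI1, the neighbour of ETS1 on chromosome 11, and ERG stayed under the limit on all arrays. Of 10 other PAX and FOXD genes only PAX8 and FOXD1 were tested. FOXD1, a relative of FOXD3, read 9.28 and 9.0 in iCSC, 8.98 and 9.02 in Sphere, and 11.65 and 11.58 in Monolayer, and fell by 2.47 in iCSC and by 2.61 in Sphere against Monolayer (log2, adjusted p = 1.45e-05 and 8.40e-06).

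**Figure D5:**
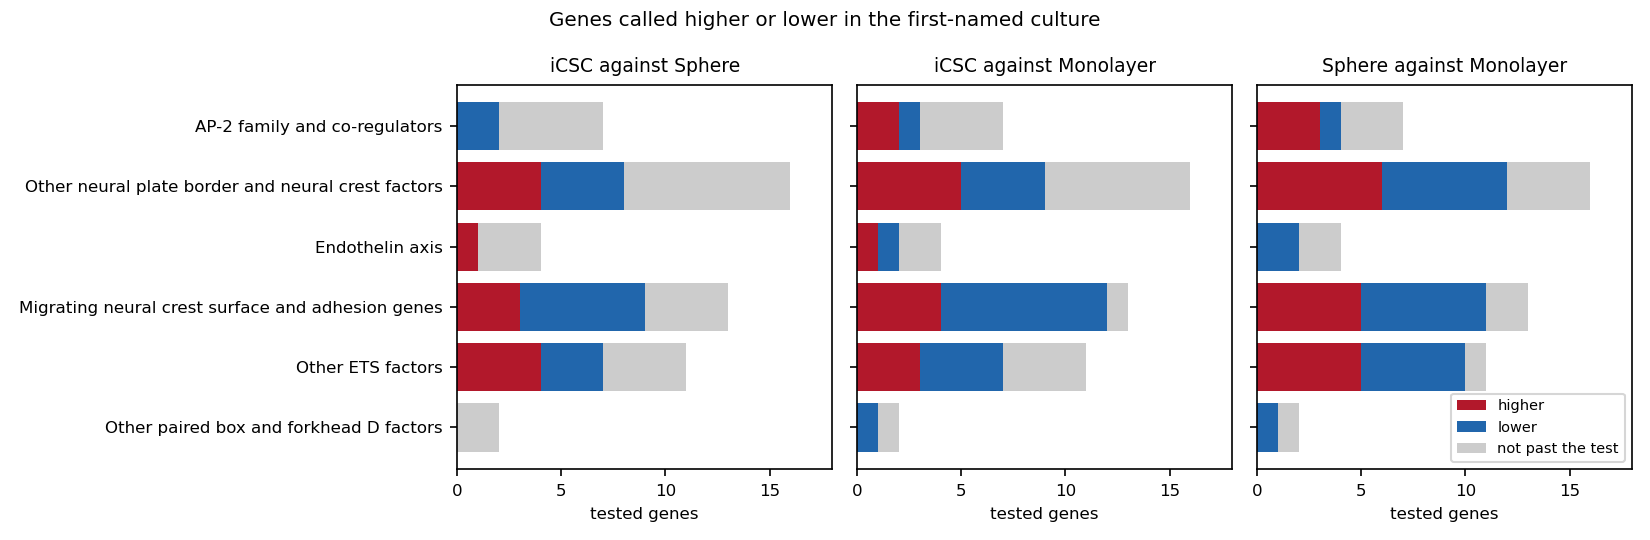
Number of tested genes of 6 lists related to the crest called higher (red) or lower (blue) in the first-named culture, or not past the test (grey), for each comparison (limma, adjusted p under 0.05). The 16 tested border and crest factors split evenly in iCSC against Sphere and in Sphere against Monolayer, and the counts include ELF4 (iCSC against Sphere) and ROBO2 (iCSC against Monolayer), each under the limit in both cultures. From left to right, 38.5%, 55.6% and 59.0% of all tested genes were called.

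Markers of crest derivatives were set beside these patterns. Of all tested genes 38.5% were called in iCSC against Sphere, 55.6% in iCSC against Monolayer and 59.0% in Sphere against Monolayer. Every marker count below is a description, to be read beside these shares. Of 8 sympathoadrenal markers measured, 7 were tested, and in iCSC against Sphere 0 rose and 5 fell, in iCSC against Monolayer 3 rose and 2 fell, and in Sphere against Monolayer 6 rose and 0 fell. GATA3, a factor of sympathetic neurons, read 7.98 and 8.40 in iCSC, 12.48 and 12.13 in Sphere, and 8.68 and 8.21 in Monolayer. PHOX2A, which drives noradrenergic genes, read 5.83 and 7.01 in iCSC, 9.45 and 8.87 in Sphere, and 3.53 and 3.69 in Monolayer, so it stood in the same order as TFAP2B. Its call in iCSC against Sphere (log2 change -2.74) was lost without variance moderation (limma, adjusted p = 0.0595). The 2 markers that fell in iCSC against Monolayer did not stand in that order, and the GATA3 arrays of iCSC and Monolayer overlapped. The log2 of the summed signal of the 8 markers was 10.61 to 10.69 in iCSC, 12.79 to 13.15 in Sphere and 10.17 to 10.34 in Monolayer. In Sphere GATA3 alone made up a large part of that sum. Their part in the TFAP2B and EDNRB results was not tested.

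Of 7 pigment cell markers measured, PMEL and TYRP1 were highest in Sphere, as EDNRB was, MITF was highest in Monolayer, and 4 were under the limit on all arrays, as were SOX10 and PAX3. Of the 3 tested, in iCSC against Sphere 0 rose and 2 fell, in iCSC against Monolayer 1 rose and 1 fell, and in Sphere against Monolayer 2 rose and 1 fell. PMEL, a melanosome protein, read 6.28 and 6.16 in iCSC, 8.68 and 8.98 in Sphere, and 2.99 and 4.10 in Monolayer, and TYRP1, an enzyme of melanin synthesis, read 5.82 and 8.65 in iCSC, 11.84 and 12.33 in Sphere, and 9.20 and 8.06 in Monolayer. MITF, the master regulator of the pigment lineage, ran the other way, at 5.49 and 5.81 in iCSC, 6.05 and 6.12 in Sphere, and 7.84 and 7.78 in Monolayer, with changes of -2.16 ± 0.18 in iCSC and -1.73 ± 0.18 in Sphere against Monolayer (log2, SE; limma, adjusted p = 0.000128 and 0.000274). TYRP1 was called lower in iCSC than in Sphere (limma, adjusted p = 0.00598). That call was lost without Sphere replicate 2 (change -4.61) and without variance moderation (adjusted p = 0.0923). TYRP1 was also called higher in Sphere than in Monolayer (adjusted p = 0.0137). This second call was lost without Sphere replicate 1 (change 3.70), Sphere replicate 2 (3.21) or Monolayer replicate 2 (2.89), and without variance moderation (adjusted p = 0.118). The PMEL call in iCSC against Sphere (change -2.60) was lost without variance moderation (adjusted p = 0.0519). TYR, MLANA and KIT were under the limit on all arrays. The log2 of the summed signal of the 7 markers was 7.63 to 9.10 in iCSC, 12.03 to 12.49 in Sphere and 9.03 to 9.72 in Monolayer. In Sphere TYRP1 alone made up most of that sum. The part of these markers in the EDNRB result was not tested.

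Glial markers were mostly under the limit, as SOX10 was. Of 8 Schwann cell and glial markers, 6 were under the limit on all arrays, S100B, CDH19, FABP7 and GFAP among them. Of the 2 tested, in iCSC against Sphere 1 rose and 0 fell, in iCSC against Monolayer 1 rose and 1 fell, and in Sphere against Monolayer 0 rose and 1 fell. ERBB3, the neuregulin receptor of crest-derived glia, read 7.74 and 7.08 in iCSC, 4.32 and 4.89 in Sphere, and 5.15 and 5.21 in Monolayer, at least 5.31-fold above Sphere in iCSC (limma, adjusted p = 0.000583) and 2.23 ± 0.29 above Monolayer (log2, SE; adjusted p = 0.000952). GAS7 ran the other way, at 6.36 and 6.39 in iCSC, 6.5 and 6.44 in Sphere, and 9.07 and 8.02 in Monolayer. It changed by -2.17 ± 0.33 in iCSC and by -2.08 ± 0.33 in Sphere against Monolayer (log2, SE; limma, adjusted p = 0.00178 and 0.00190). The log2 of the summed signal of the 8 glial markers was 7.99 to 8.37 in iCSC, 7.19 to 7.25 in Sphere and 8.38 to 9.25 in Monolayer. In Monolayer GAS7 alone made up most of that sum. Of 6 endothelial markers, set beside ETS1 and EDN1, CDH5, KDR, TIE1 and VWF were under the limit on all arrays, while TEK reached it in Monolayer alone (7.85 and 7.70) and PECAM1 in Sphere alone (5.45 and 5.73). Each comparison called 1 of these higher and 1 lower, but TEK in iCSC against Sphere and PECAM1 in iCSC against Monolayer were under the limit in both cultures. The PECAM1 probe set used passed the filter through Sphere alone. A PECAM1 probe set that was brighter on average stayed under the limit in every culture. Of 6 leukocyte markers only PTPRC reached the limit, at 2.85 and 2.87 in iCSC, 12.42 and 12.52 in Sphere, and 11.64 and 11.84 in Monolayer, and it was called in all 3 comparisons. Of 9 epithelial and placode markers, EPCAM, CDH1, KRT19, GRHL2, KRT5 and KRT14 were under the limit on all arrays, and KRT8 and KRT18 were highest in Monolayer, with KRT18 at 8.0 and 8.27 in iCSC, 7.62 and 8.13 in Sphere, and 12.85 and 12.68 in Monolayer. Of the 3 tested in that list, 0 rose and 2 fell in iCSC against either other culture, and 1 rose and 2 fell in Sphere against Monolayer. The 1 that rose was neither KRT8 nor KRT18, so the 3 did not share the Monolayer pattern. The part of these markers in the TFAP2A and ETS1 results was not tested. All 6 mesenchymal markers were tested. In iCSC against Sphere 4 rose and 1 fell, in iCSC against Monolayer 3 rose and 1 fell. In Sphere against Monolayer 2 rose and 3 fell. The FN1 call in iCSC against Sphere (log2 change 1.87) was lost when either Sphere array was left out. So were the calls of FN1 (-1.55) and COL1A1 (0.42) in Sphere against Monolayer.

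The tested genes nearest in pattern to each of the 5 were found from the root mean square difference over the 6 arrays between centred profiles with values under 5 set to 5. Nearest to TFAP2B were FABP5, a fatty acid binding protein (difference 0.19), ESRRG, an orphan nuclear receptor (0.29), and INA, a neuronal intermediate filament (0.30). FABP5 read 4.21 and 6.26 in iCSC, 10.99 and 11.15 in Sphere, and 2.50 and 2.55 in Monolayer. Nearest to TFAP2A were IL1RAP, CALB1 and HHIP (0.06 each), with HHIP, which binds Hedgehog ligands, at 3.80 and 4.60 in iCSC, 2.09 and 2.12 in Sphere, and 7.23 and 6.28 in Monolayer. Nearest to EDNRB were COL27A1 (0.16), TAOK3 and MMP16 (0.19 each), to TFAP2C TOX-DT, PRKAG2 and CEP128 (0.22 each), and to ETS1 CALML4, YES1 (0.19 each) and MIPEPP3 (0.21). With 6 arrays of 3 cultures these names are a description.

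The neighbours on the chromosome, looked up after the values were seen, did not follow a common rule. Those given with values below had the largest changes. GCNT2, TFAP2D, PKHD1, FAM209B, C22orf23, PICK1, KIRREL3, FLI1 and POU4F1, the other neighbour of EDNRB, were under the limit on all arrays and not tested. SLC35B3, ATG4C and ALG6 were above it on all arrays, with changes up to 0.73 (log2, ATG4C in Sphere against Monolayer). SLAIN1, a microtubule protein gene next to EDNRB on chromosome 13, read 9.22 and 9.06 in iCSC, 9.72 and 9.68 in Sphere, and 6.39 and 6.54 in Monolayer, higher by 2.68 ± 0.13 in iCSC and by 3.24 ± 0.13 in Sphere than in Monolayer (log2, SE; limma, adjusted p = 1.46e-05 and 4.77e-06). BMP7, a growth factor gene next to TFAP2C on chromosome 20, ran opposite to it, with means of 10.08 ± 0.11 in iCSC, 7.83 ± 0.22 in Sphere and 2.75 ± 0.47 in Monolayer (SD). PAX3 was under the limit throughout, while its neighbours on chromosome 2 were each above the limit in 1 culture. EPHA4, a guidance receptor, read 2.87 and 2.88 in iCSC, 2.84 and 2.94 in Sphere, and 10.89 and 11.14 in Monolayer, and SGPP2, a sphingolipid phosphatase, read 2.19 and 2.20 in iCSC, 7.52 and 8.62 in Sphere, and 2.23 and 2.24 in Monolayer.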

How the data were processed

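Expression was measured in 6 samples of the line SK-N-AS, 3 cultures of 2 arrays. The deposited values are log2 signals per probe set, made by the authors. GCRMA, a background correction, normalization and summary method for probes, and Partek are named in the submitters' processing notes, without settings. Probe sets without signal sit in a narrow low band, so folds that start there are given as bounds. Groups came from the sample titles.

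The platform annotation named the probe sets, and its symbols were brought up to RefSeq (GRCh38.p14) by Entrez number. Of 54675 probe sets 41091 carried a single symbol. Those reaching log2 5 on 2 or more arrays were kept, and the one with the highest mean stood for its gene, which left 10459 genes. All 6 arrays entered 1 limma model (version 3.58.1, R 4.3.3) with a mean per culture and no covariate, moderated with a trend, two-sided, with Benjamini-Hochberg adjustment over all tested genes and calls at adjusted p under 0.05. Probe sets were fitted apart in the same way. The fit was also run on simulated arrays with independent noise and far fewer changed genes than were called here. That run bears on the working of the fit and not on the calls in these data. Plots were made in Python 3.11.15 (matplotlib 3.10.9).

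The 8 genes, the lists, the rule for named genes and the tests were chosen with earlier results of these data known. The rule named all 8 genes, up to 4 called genes per list and comparison with the largest absolute fold change, and the 3 genes nearest in pattern. Not every gene it named is described here, CHD7 and MYC among those left out. Genes named for being under the limit or without a call were added after their values were seen. Alternatives were other filters, a floor at log2 5, other scalings, variance models and probe set choices, a replicate block, and leaving out arrays.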

Additional observations from a re-analysis of the deposited data

How the results depend on the processing

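The count of the 8 genes called was 3, 5 and 4 in iCSC against Sphere, iCSC against Monolayer and Sphere against Monolayer. It ranged from 3 to 4, 4 to 5 and 3 to 4 when each array was left out in turn, and was 3, 4 and 3 at an adjusted p under 0.01. Over all tested genes, leaving out arrays gave 2574 to 3883, 3957 to 5646 and 4530 to 6604 calls, against 4022, 5812 and 6176. The lowest count, 2574 in iCSC against Sphere, came without Sphere replicate 1, and without variance moderation that count was 2281. Over probe sets of the 8 genes, iCSC against Monolayer called 4 with a filter at log2 7 and 3 with values under 5 set to 5, against 7, and Sphere against Monolayer called 4 with the filter at log2 7, against 7. Fewer probe sets enter at that filter. With the replicate number as a block the counts of the 8 genes were again 3, 5 and 4, and those of all genes were 4106, 5891 and 6219. Deviations of same-numbered arrays from their culture means correlated at 0.17 (iCSC and Sphere), -0.05 (iCSC and Monolayer) and 0.02 (Sphere and Monolayer). With 2 arrays per culture these values cannot settle whether same-numbered arrays were handled together, and the labels do not say. PECAM1, an endothelial marker, changed sign with no filter, where another probe set leads: 0.0047 in iCSC against Sphere and -0.0036 in Sphere against Monolayer (log2). With no filter, the other ETS factors had 2 higher and 2 lower in iCSC against Sphere, against 4 and 3. Mesenchymal markers then had 1 higher and 2 lower in Sphere against Monolayer, against 2 and 3, and endothelial markers 0 higher and 1 lower, against 1 and 1. By Pearson correlation, none of the 3 genes nearest to each of the 5 tested genes was the same. Signals under log2 5 and 2 arrays per culture limit all of these values.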
